A study of Mus musculus with 10 samples.

Results

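The ion channel genes described here are 10 genes of T cell calcium and membrane potential biology, measured by RNA sequencing in sorted mouse Treg (regulatory T cells, a Foxp3-dependent CD4 lineage that holds immune responses in check). They are Kcna3, Kcnn4, Orai1, Orai2, Stim1, Trpv2, Trpm4, Cnga1, Gabrr1 and Gabrr2, taken by name from the 32767 genes of the expression tables. They were chosen by their known roles and selected on the FPKM difference between wild-type and knockout Treg, which was already known, so their own values are given as a description and no test of them is read as a result. Of the 10, 9 were detected above 1 FPKM in all 4 libraries, whereas Gabrr1 was listed at 0 in all 4. The name ion channels of T cells is loose for Stim1, which encodes a sensor that opens channels. Cnga1 and Gabrr2 had only 1.34 to 2.08 FPKM in the knockout libraries.

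The study used spleen and lymph node cells of C57BL/6 mice. In the experiment used here, Treg were sorted by the YFP of Foxp3-cre mice that were Foxp3cre/wt, with 2 libraries of wild-type Treg (WT, Tcf7 wt/wt and Lef1 wt/wt) and 2 libraries of double-knockout Treg (dKO, Tcf7 fl/fl and Lef1 fl/fl). All 4 libraries therefore carry the Foxp3-cre allele, which is heterozygous, and the design directs deletion to cells that express Foxp3. Where deletion took place, and how completely, was not tested. A second experiment, on Treg subsets, was not used here because its identifiers do not match the values beside them. The ages of the mice and whether the 2 libraries of a group came from separate animals are not given, so the spread between libraries may be technical.

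Calcium entry drives T cell activation. When the antigen receptor is engaged, calcium leaves the endoplasmic reticulum, the sensor STIM1 detects the loss and opens ORAI channels in the plasma membrane, and the calcium that enters activates calcineurin, which sends NFAT transcription factors to the nucleus. Potassium channels keep the membrane potential negative, which sustains this entry, while the calcium-activated cation channel TRPM4 depolarises the membrane and limits it. Cyclic nucleotide-gated channels and GABA-gated chloride channels are best known from the retina and the nervous system.

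Gene levels are FPKM, fragment numbers scaled by transcript length and by library size, so levels of different genes can be compared per length. The lengths used are not given, and every comparison between genes depends on them. How the library size was computed is not given. From the lowest values, in which single fragments can be recognised, depth was estimated at about 39300000 and 28700000 fragments for the WT libraries and 26500000 and 27700000 for the dKO libraries. These depths take the library size to be the mapped total. Lef1 had 160 and 167 FPKM in WT against 71.6 and 62.8 FPKM in dKO, and Tcf7 had 456 and 501 against 316 and 272 FPKM. Both targeted genes were therefore lower but present in the libraries labelled dKO. A gene-level FPKM includes exons that stay after deletion, so this checks the labels only in part. All 9 T cell and Treg markers exceeded 1 FPKM in every library, with summed levels of 3306 and 3412 (WT) and 3065 and 3091 FPKM (dKO), and Foxp3 had 106 to 126 FPKM. Within that list both dKO libraries were lower for Cd4 (384 and 411 against 187 and 265 FPKM), Ikzf2 (77.3 and 60.4 against 27.9 and 46.9 FPKM) and Cd3d, and higher for Il2ra and Cd3e. Of 12 myeloid markers none exceeded 1 FPKM in all 4 libraries, but their sum was 78.1 FPKM in dKO replicate 2 against 3.801 to 10.2 FPKM in the other 3 libraries. Of 8 B cell markers only Cd79b exceeded 1 FPKM throughout, and the sums were 17.0 and 17.6 (WT) and 24.5 and 25.2 FPKM (dKO). Of 9 CD8 T and NK markers 3 exceeded 1 FPKM throughout, with sums of 53.3 and 39.4 against 60.5 and 65.5 FPKM. Ncr1, the defining NK receptor gene, stayed at or under 0.073 FPKM. Prf1, the perforin gene, had 3.68 and 4.39 against 17.5 and 10.9 FPKM, and Gzma and Cd8a were also higher in both dKO libraries. Eomes (1.43 and 1.37 against 0.59 and 0.84 FPKM) and Klrb1c (1.39 and 0.93 against 0.49 and 0.89 FPKM) were lower in both. The groups overlapped for Klrd1, Nkg7 (15.9 to 31.8 FPKM) and Cd8b1 (14.1 to 16.5 FPKM). Of 8 plasmacytoid dendritic cell markers 6 exceeded 1 FPKM throughout, and the list summed to 87.2 and 93.0 against 101 and 105 FPKM. Bst2 made up 61.3 to 75.8 FPKM of these sums, while Siglech and Spib stayed at or under 0.535 and 0.362 FPKM. None of 8 erythroid and platelet markers exceeded 1 FPKM throughout, and these summed to at most 7.67 FPKM.

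Most of the 10 genes differed little between the groups, and a pair differed by a large factor. Kcnn4, Kcna3, Orai1, Orai2, Stim1, Trpv2 and Trpm4 had dKO means between 0.80 and 1.18 times their WT means. Cnga1 was 6.68-fold lower in dKO, and Gabrr2 was 5.79-fold lower. Bulk libraries cannot tell apart fewer cells that express a gene and less RNA per cell, which applies to every difference given here. The plot of member levels shows the 2 libraries of each group for every gene.

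**Figure D1:**
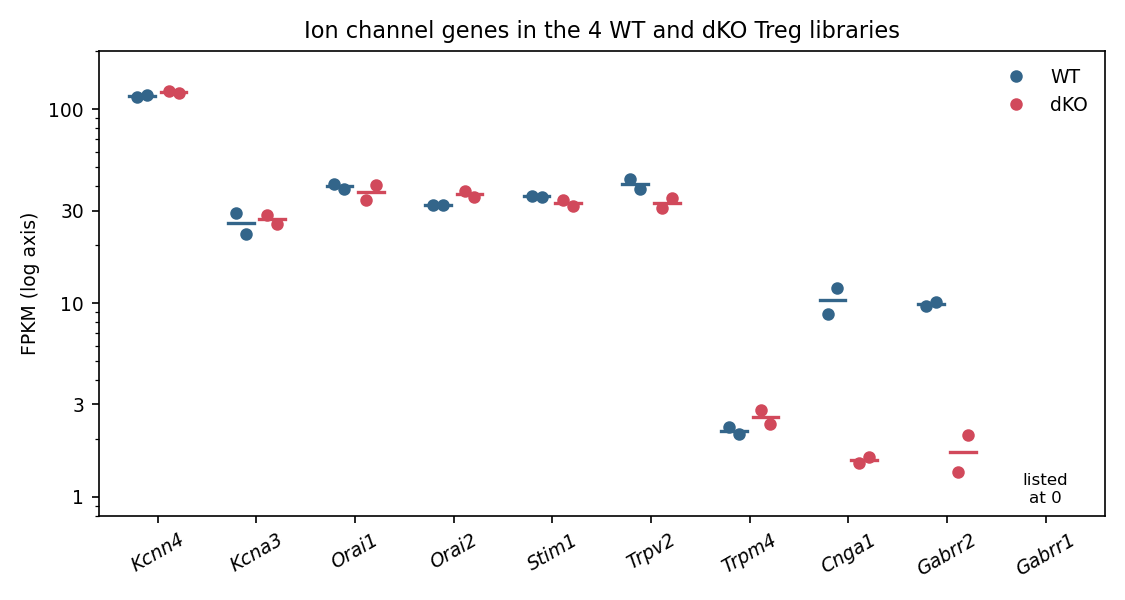
FPKM of the 10 ion channel genes on a log axis, with a point for each library and a line at the mean of the 2 libraries of a group (WT in blue, dKO in red). Kcnn4 lies highest at 115 to 123 FPKM, and the dKO points of Cnga1 and Gabrr2 lie below 2.1 FPKM while their WT points lie above 8.8 FPKM; Gabrr1 is listed at 0.

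Kcnn4 and Kcna3 encode the main potassium channels of T cells, KCa3.1, which calcium opens through calmodulin, and Kv1.3, which depolarisation opens. Kcnn4 (chromosome 7, 24370263 to 24386690 on GRCm38) had 115 and 118 FPKM in the WT libraries and 123 and 121 FPKM in the dKO libraries. Both dKO libraries lay just above both WT libraries, by a log2 fold change of 0.065 (SE 0.060) on the log2(FPKM + 1) scale. Its mean WT level exceeded that of 93.1% of the 10596 genes whose WT mean reached 1 FPKM. Kcna3 (chromosome 3, 107036169 to 107038070) had 29.2 and 22.6 (WT) and 28.6 and 25.4 FPKM (dKO). The groups overlapped, and the WT libraries differed from each other by more than the group means did, with a log2 fold change of 0.067 (SE 0.14). Within a library, Kcnn4 stood 3.96 to 5.21 times as high per length as Kcna3 in the deposited FPKM. The transcript lengths behind these values are not known, and the ratio depends on them.

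Orai1 encodes the pore subunit of the store-operated calcium channel, Orai2 a related subunit that can join the same channel, and Stim1 the endoplasmic reticulum sensor that opens it. Orai1 (chromosome 5, 123015074 to 123030456) had 41.2 and 38.8 (WT) and 34.1 and 40.8 FPKM (dKO). Only dKO replicate 1 lay below the WT libraries, and the log2 fold change was -0.097 (SE 0.11). Orai2 (chromosome 5, 136147459 to 136170713) had 32.2 and 31.9 (WT) and 37.7 and 35.4 FPKM (dKO). Both dKO libraries were above both WT libraries, with a mean ratio of 1.14 and a log2 fold change of 0.18 (SE 0.072). Stim1 (chromosome 7, 102267806 to 102437319) had 35.7 and 35.4 (WT) and 34.0 and 31.5 FPKM (dKO), which put both dKO libraries below WT with a mean ratio of 0.92 and a log2 fold change of -0.12 (SE 0.075). The ratio of Orai1 to Orai2 was 1.28 and 1.22 in the WT libraries and 0.906 and 1.15 in the dKO libraries. Orai1 thus exceeded Orai2 per length in all libraries but dKO replicate 1. Orai1 and Stim1 were close to each other, with ratios of 1.00 to 1.30.

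Trpv2, a calcium-permeable cation channel of the vanilloid TRP family that macrophages also use, had 43.7 and 38.6 (WT) and 30.8 and 34.9 FPKM (dKO) (chromosome 11, 62574486 to 62600515). Its dKO values were each lower than either WT value, at 0.80 of the WT mean, and the log2 fold change was -0.32 (SE 0.10). Trpv2 had the largest difference among the 7 genes other than Cnga1 and Gabrr2. The myeloid marker sum was high in dKO replicate 2, which also had the higher Trpv2 level of the dKO libraries. The log2 fold change was -0.41 without dKO replicate 2, -0.23 without dKO replicate 1, -0.23 without WT replicate 1 and -0.40 without WT replicate 2, and the part of myeloid cells in the Trpv2 values was not tested. Trpm4 (chromosome 7, 45302632 to 45333780) encodes the depolarising cation channel TRPM4 and was the lowest of these 7 genes, at 2.28 and 2.10 (WT) and 2.82 and 2.37 FPKM (dKO). Its dKO libraries lay above its WT libraries by 0.17 (SE 0.15) on the log2 scale. The pseudogene Rpl14-ps1, which overlaps Trpm4 on the opposite strand, had 15.8 to 16.9 FPKM in the 4 libraries. The strand setting of the counting is not given, and whether reads of Rpl14-ps1 entered the Trpm4 level was not tested. Opposite-strand genes also overlap Kcna3 (Gm27008), Orai1 (Gm2479) and Stim1 (Gm18255). These were not analysed here, and their part in those levels was not tested.

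Cnga1 encodes the cGMP-opened alpha subunit of the rod photoreceptor channel, which carries sodium and calcium. Cnga1 (chromosome 5, 72603696 to 72644275) had 8.81 and 12.01 (WT) and 1.50 and 1.61 FPKM (dKO). The lowest WT library was well above the highest dKO library, and the means were 10.4 ± 2.26 and 1.56 ± 0.081 FPKM (SD, n = 2 per group). The log2 fold change was -2.14 (SE 0.17), which the pseudocount makes smaller than the ratio of the means. A pseudogene, Gm5297, lies within Cnga1 on the same strand and was not analysed here, so a share of the reads could belong to it.

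Gabrr2 and Gabrr1 encode the rho subunits of GABA-gated chloride channels. Gabrr2 (chromosome 4, 33062999 to 33095865) had 9.61 and 10.2 (WT) and 1.34 and 2.08 FPKM (dKO). Again both dKO libraries were far below both WT libraries, with means of 9.89 ± 0.40 and 1.71 ± 0.52 FPKM (SD, n = 2 per group) and a log2 fold change of -2.02 (SE 0.17). At the annotated exon length of 2105 bases, the dKO values correspond to about 67.6 and 110 fragments. That is the joint exon length of 4 annotated transcripts, and a shorter length would give fewer fragments. The annotation the authors used is not given, so the length they divided by is not known. Gabrr1 lies 36.7 kb downstream of Gabrr2 on the same strand (33132521 to 33163588), with 0 annotated genes between them. It was listed at 0 in each of the 4 libraries. The tables hold no counts, so the 0 is given as listed, with no fold.

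Cnga1 and Gabrr2 each stood alone in their channel family. Of 9 other cyclic nucleotide-gated and HCN channel genes with a row in the tables, 4 were listed at 0 throughout and the highest, Hcn3, reached 1.03 FPKM. Cngb1, the beta subunit that joins CNGA1 in the rod channel, stayed at or under 0.106 FPKM. Of 40 other pentameric ligand-gated channel genes, Gabrr1 aside, 33 were listed at 0 throughout and the highest value was 1.26 FPKM, for the nicotinic receptor subunit gene Chrna9. The nicotinic subunit genes Chrnb2 and Chrnb1 had 0.607 to 0.892 FPKM, and the GABA receptor subunit gene Gabrd at most 0.597 FPKM. None of these relatives reached 1 FPKM in 2 libraries, the minimum for a test.

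**Figure D2:**
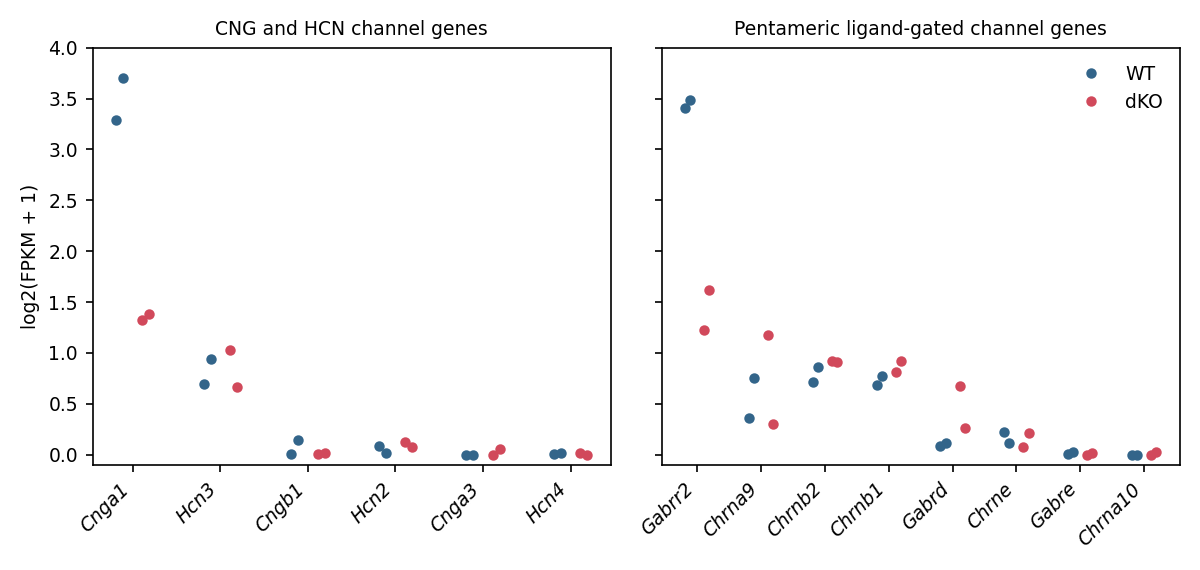
Levels as log2(FPKM + 1) of the cyclic nucleotide-gated and HCN channel genes (left) and the pentameric ligand-gated channel genes (right) that were above 0 in at least 1 library, with a point per library (WT in blue, dKO in red). Cnga1 and Gabrr2 stand above their relatives in WT, and no relative exceeds 1.26 FPKM.

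The regions just before the annotated starts of these genes are shown because the 2 genes with large differences sit behind sequence poor in CpG, unlike 4 of the other genes. RefSeq starts on GRCm38.p6 were matched for 9 of the 10 genes, all but Trpm4, giving 11 windows of 250 bases. The windows of Cnga1, Gabrr2 and, as a CpG-rich example, Orai1 are printed 5′ to 3′ in the direction of the gene, with CpG dinucleotides in capitals.
Cnga1 (chr5:72642753-72643002, minus strand): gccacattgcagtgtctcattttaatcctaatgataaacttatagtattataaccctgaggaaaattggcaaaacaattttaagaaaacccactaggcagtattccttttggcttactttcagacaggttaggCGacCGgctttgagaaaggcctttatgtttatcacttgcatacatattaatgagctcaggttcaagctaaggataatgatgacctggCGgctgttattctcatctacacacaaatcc
Gabrr2 (chr4:33062862-33063111, plus strand): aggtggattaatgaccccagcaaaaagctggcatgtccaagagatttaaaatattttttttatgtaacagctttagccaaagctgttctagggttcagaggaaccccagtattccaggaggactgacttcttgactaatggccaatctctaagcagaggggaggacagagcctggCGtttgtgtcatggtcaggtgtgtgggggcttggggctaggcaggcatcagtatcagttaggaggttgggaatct
Orai1 (chr5:123014824-123015073, plus strand): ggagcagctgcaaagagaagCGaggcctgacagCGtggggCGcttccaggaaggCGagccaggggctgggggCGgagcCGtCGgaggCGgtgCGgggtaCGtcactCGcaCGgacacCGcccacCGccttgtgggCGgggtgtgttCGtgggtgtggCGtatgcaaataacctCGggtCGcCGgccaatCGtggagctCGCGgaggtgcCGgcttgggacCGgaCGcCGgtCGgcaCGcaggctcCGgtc
The Cnga1 window held 3 CpG and the Gabrr2 window 1, against 30 for Orai1, 31 each for Kcna3 and Stim1, 17 for Orai2, 7 for Gabrr1 and 6 for Kcnn4. Trpv2 had 2, 2 and 5 CpG at its 3 starts, so a low CpG count was not confined to the pair with large differences. Among all 32851 windows the median was 6 CpG, and 37.8% had 3 or fewer.

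The windows were also searched on both strands for 4 words read by TCF and LEF proteins, which are CTTTGAA (in 4.46% of all windows), CTTTGAT (in 3.21%), CTTTGTA (in 3.20%) and CTTTGTT (in 5.03%). None of the 11 windows held one, and 14.8% of all windows of the same length held at least 1. The absence covers these letters in these windows only. The RefSeq start of Cnga1 lies 1523 bases inside the outermost GENCODE start, and the start used in Treg is not given by the deposited values, so another promoter may apply.

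Ordered by level in WT, Kcnn4 came first at 117 ± 1.79 FPKM, followed by Trpv2, Orai1, Stim1, Orai2, Kcna3, Cnga1, Gabrr2, Trpm4 and Gabrr1. The ranges of the 2 WT libraries overlapped between Trpv2 and Orai1 and between Cnga1 and Gabrr2, and all other neighbours were apart. In dKO the order was Kcnn4 at 122 ± 1.86 FPKM, Orai1, Orai2, Trpv2, Stim1, Kcna3, Trpm4, Gabrr2, Cnga1 and Gabrr1. There the ranges overlapped between Orai1 and Orai2, between Trpv2 and Stim1, and between Gabrr2 and Cnga1. Trpm4, below Cnga1 and Gabrr2 in both WT libraries, was above them in both dKO libraries. Cnga1 moved from the 36.9th percentile of genes whose mean reached 1 FPKM in WT to the 5.50th in dKO, and Gabrr2 from the 35.6th to the 6.48th.

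**Figure D3:**
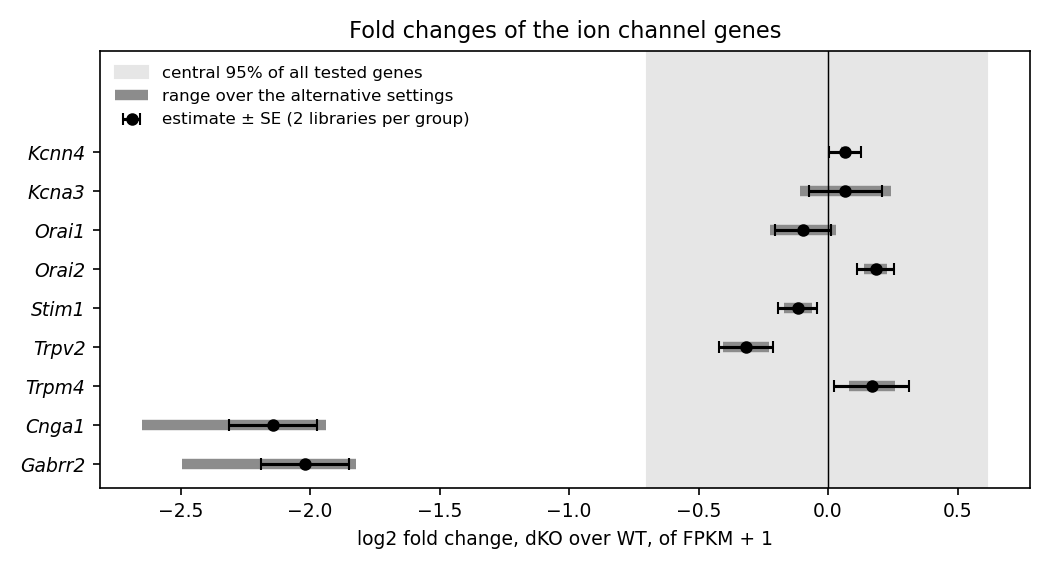
Log2 fold change of dKO over WT on the log2(FPKM + 1) scale for the 9 ion channel genes with a fit, as the estimate with its SE (black), the range over the alternative settings (dark grey bar) and the central 95% of the 10710 genes tested (light band, -0.70 to 0.62). Cnga1 and Gabrr2 lie outside the band in the estimate and in all settings, and the other 7 lie inside it.

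The fit across all genes was limma on log2(FPKM + 1) for the 10710 genes that reached 1 FPKM in 2 or more libraries, at a Benjamini-Hochberg adjusted p of 0.05. Of the 10 members 9 entered it, and Gabrr1 did not. Among these, 2 (Cnga1 and Gabrr2) passed, both lower in dKO, against 0.7% of all genes tested (0.383% lower and 0.317% higher), and nothing is read from that count because the difference chose the members. The libraries of the groups did not overlap for 7 of the 9, with dKO below for 4 and above for 3, against 50.8% of all genes tested (24.2% below and 26.6% above). The same 2 had an absolute log2 fold change of at least 1, against 2.01% of all genes tested, or 1.21% at -1 or lower. The median log2 fold change of the 9 was -0.097, against 0.013 for all genes tested. Without the 1 FPKM filter, or with the replicate number as a block, neither Cnga1 nor Gabrr2 passed. Among genes with a mean of at least 5 FPKM, Cnga1 passed and Gabrr2 did not. Without WT replicate 1 or WT replicate 2 neither of them passed, and without dKO replicate 1 Gabrr2 alone did, in fits that take the lone library of a group to vary like the other group. The log2 fold changes in the 4 fits that left out a library were -2.35 to -1.94 for Cnga1 and -2.22 to -1.82 for Gabrr2.

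Few genes had a profile over the 4 libraries as close to Cnga1 and Gabrr2 as these had to each other. The measure was the Euclidean distance between log2(FPKM + 1) values after each gene was centred on its mean. For Cnga1 the nearest of the tested genes were the small nuclear RNA gene Gm25556 (distance 0.19), Gabrr2 (0.35) and the small RNA gene Gm22767 (0.36). Both small RNA genes were listed at 0 in dKO, and had 3.38 and 3.94 (Gm25556) and 2.11 and 2.88 FPKM (Gm22767) in WT. The number of fragments behind these low levels was not estimated. For Gabrr2 they were Gpr83, a receptor gene of Treg (0.34), Gm25556 (0.35) and Cnga1 (0.35). Gpr83 had 63.3 and 70.4 (WT) and 10.8 and 20.5 FPKM (dKO). This likeness over 4 libraries uses the same difference that chose the members.

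Calcium signalling genes outside the 10 members were compared between WT and dKO over 60 genes in 3 lists, of which 44 entered the fit. In these, 2 were lower in dKO and 0 were higher, or 4.55% against 0.7% of all genes tested (log2 fold changes were positive for 21 and negative for 23, median -0.026). The lists were drawn up with earlier results of these data known, so nothing is read from that share. Ccdc109b, a subunit that restrains the mitochondrial calcium uniporter, fell, with 15.6 and 15.7 FPKM in the WT libraries but 4.21 and 5.36 in the dKO libraries, a log2 fold change of -1.53 (SE 0.13, limma adjusted p = 0.026). Camk2d, a calmodulin-dependent kinase, fell from 56.8 and 62.2 FPKM to 35.4 and 33.2 FPKM, a log2 fold change of -0.78 (SE 0.082, limma adjusted p = 0.045). Both lie on chromosome 3 near the targeted Lef1, Ccdc109b 1.14 Mb and Camk2d 4.26 Mb away, and whether that position has a part in the difference was not tested. Ccdc109b did not pass without WT replicate 1 or 2 (-1.53 and -1.52). Camk2d passed in none of the 4 fits that left out a library, with log2 fold changes of -0.84 to -0.71.

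Within store-operated calcium entry, none of 9 tested genes passed, and 4 had both dKO libraries below WT, where 24.2% of all genes tested did. Saraf, which shuts off the STIM and ORAI channel, had 301 and 303 (WT) and 257 and 251 FPKM (dKO) (log2 fold change -0.24, SE 0.058). Stim2, the second calcium sensor, had 53.6 and 51.9 against 39.3 and 39.1 FPKM (-0.42, SE 0.066, limma adjusted p = 0.095). It stood above Stim1 in all 4 libraries. Plcg1, the phospholipase that releases calcium after receptor engagement, had 86.7 and 85.1 against 79.7 and 77.3 FPKM, and the IP3 receptor genes Itpr2 and Itpr3 had mean levels of 28.0 and 20.7 FPKM in WT, and of 24.0 and 20.6 FPKM in dKO.

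Among 13 tested calcium pump and uniporter genes, only Ccdc109b passed. Both dKO libraries were above WT for 4 of them and below for 3, against 26.6% and 24.2% of all genes tested. After Ccdc109b the largest difference was in the calcium pump gene Atp2b4, at 14.6 and 9.61 (WT) and 5.11 and 5.95 FPKM (dKO). Its log2 fold change was -0.98 (SE 0.21, limma adjusted p = 0.14). Atp2a3, the endoplasmic reticulum calcium pump SERCA3, had 116 and 115 (WT) and 135 and 130 FPKM (dKO) (log2 fold change 0.19, SE 0.060). The related pump gene Atp2a2 had 41.2 and 39.2 against 37.9 and 40.5 FPKM. Smdt1, Micu2 and Letm1, genes of mitochondrial ion transport, had 92.3 to 109, 43.1 to 49.5 and 37.5 to 42.0 FPKM over the 4 libraries.

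The calcineurin and NFAT list had 22 tested genes and 1 call, Camk2d. Calm2 and Calm3, which encode calmodulin, had 152 to 168 and 128 to 139 FPKM over the 4 libraries. Ppp3r1, the regulatory subunit of calcineurin, had 71.8 and 81.3 against 69.6 and 70.6 FPKM, and Nfatc3 had 77.5 and 84.6 against 78.8 and 77.2 FPKM. None of these 4 genes passed.

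Channel genes outside the 10 members were compared over 232 genes in 7 lists, of which 101 were listed at 0 in every library and 42 entered the fit. P2rx7, the ATP-gated cation channel, was the 1 gene that passed, or 2.38% against 0.7% of all genes tested. It fell, with 91.0 and 101 FPKM in the WT libraries but 32.7 and 39.8 in the dKO libraries, a log2 fold change of -1.39 (SE 0.12, limma adjusted p = 0.028), and did not pass without WT replicate 1 or 2 (-1.46 and -1.31). Log2 fold changes were positive for 30 of the 42 and negative for 12, and their median was 0.12 against 0.013 for all genes tested. The channel lists too were drawn up with earlier results of these data known, so nothing is read from these shares.

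**Figure D4:**
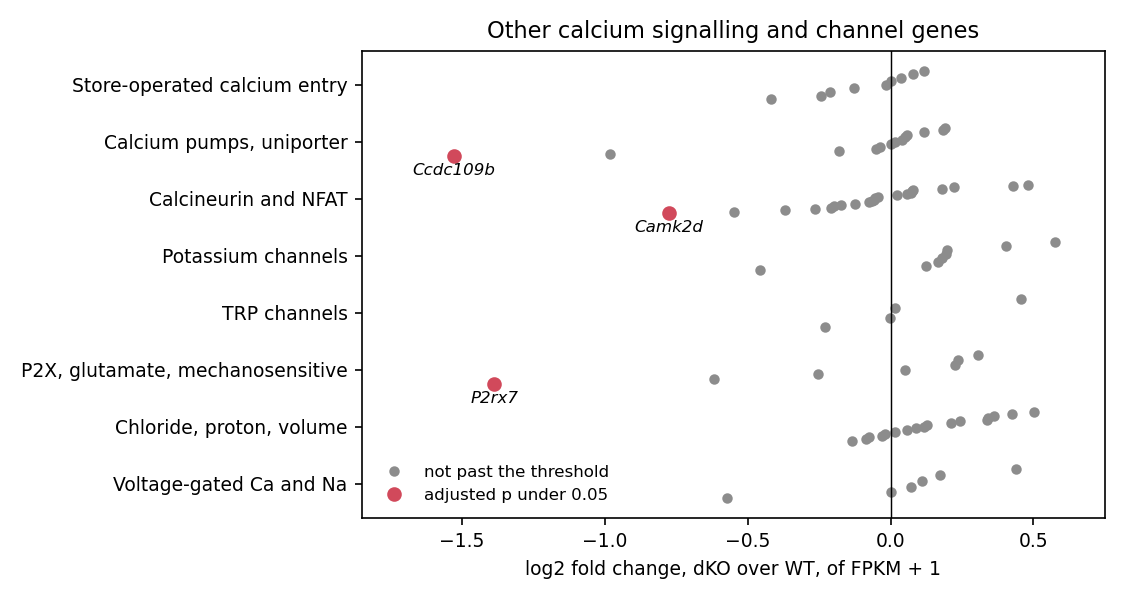
Log2 fold change of dKO over WT on the log2(FPKM + 1) scale for the tested calcium signalling and channel genes outside the 10 members, 1 point per gene, by list. The 3 genes past the threshold, Ccdc109b, Camk2d and P2rx7, are in red and lower in dKO.

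Potassium channel genes had 8 tested members and no call, with both dKO libraries above WT for 4 and below for 1, against 26.6% and 24.2% of all genes tested. Kcnab2, a beta subunit that joins Kv1 channels such as Kv1.3, was the most abundant, at 88.7 and 94.2 (WT) and 118 and 92.9 FPKM (dKO) (log2 fold change 0.19, SE 0.13). It was 0.024 without dKO replicate 1 and 0.36 without dKO replicate 2. Tmem175, a lysosomal potassium channel, had 10.5 and 11.2 against 16.4 and 13.2 FPKM (0.40, SE 0.13, limma adjusted p = 0.22). Kcnh2, Kcnk5 and Kcnmb4 lay between 3.63 and 12.6 FPKM in the 4 libraries. Kcnn4 was thus above each of these potassium channel genes per length in all libraries, and among the tested genes of the list Kcna3 was exceeded by Kcnab2 alone.

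TRP channel genes had 4 tested members besides Trpv2 and Trpm4, and none passed. Trpm7, a cation channel fused to a kinase, had 26.6 and 30.7 (WT) and 29.9 and 28.0 FPKM (dKO). Mcoln1, a lysosomal calcium channel, had 20.3 and 18.7 against 25.7 and 28.7 FPKM (log2 fold change 0.46, SE 0.093, limma adjusted p = 0.13). Mcoln3 had 4.18 to 5.45 FPKM and Trpm1 2.44 to 6.12 FPKM over the 4 libraries, with overlapping groups.

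In the list of P2X, glutamate-gated and mechanosensitive channels, 7 genes were tested. Beside P2rx7, Panx1, which forms the pores that release ATP, had 72.6 FPKM in both WT libraries and 58.1 and 63.6 FPKM in dKO (log2 fold change -0.25, SE 0.074). P2rx4 had 17.9 and 16.1 against 23.1 and 19.5 FPKM. Piezo1, a mechanosensitive channel, had 20.8 and 22.3 against 26.9 and 24.3 FPKM, and Tmem63a had 30.1 to 36.0 FPKM over the 4 libraries.

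Chloride, proton and volume-regulated channel genes had 17 tested members, of which none passed and 12 had a positive log2 fold change. Clic1 was the most abundant, at 256 and 257 (WT) and 242 and 245 FPKM (dKO). Hvcn1, the voltage-gated proton channel, had 57.0 and 68.3 against 79.9 and 78.2 FPKM (log2 fold change 0.34, SE 0.10). B cells also express Hvcn1, and the B cell marker sum was higher in both dKO libraries, as was Cd79b at 14.1 and 14.6 (WT) and 22.5 and 23.3 FPKM (dKO). Cd22, the next highest marker of that list in WT, went the other way, at 1.43 and 2.30 against 0.94 and 0.37 FPKM, and the part of B cells in the Hvcn1 value was not tested. Ttyh3 had 41.3 and 42.0 against 63.1 and 50.03 FPKM, Lrrc8c, a subunit of the volume-regulated anion channel, 42.1 to 55.8 FPKM over the 4 libraries, and Ano6, a calcium-activated scramblase, 24.6 to 27.2 FPKM. Voltage-gated calcium and sodium channel genes had 6 tested members and no call. The highest, the lysosomal channel gene Tpcn1, had 25.5 to 28.4 FPKM. Cacnb1, Cacna2d4 and Tpcn2 lay between 2.77 and 8.08 FPKM, with overlapping groups. Cacna1a had 6.68 and 6.17 against 2.82 and 5.52 FPKM (log2 fold change -0.57, SE 0.27, limma adjusted p = 0.36). Its log2 fold change was -0.19 without dKO replicate 1 and -0.96 without dKO replicate 2.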

How the data were processed

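Polyadenylated RNA of sorted Treg was sequenced after CD4 enrichment and cell sorting, with RNeasy Plus Mini extraction and the TruSeq Stranded mRNA kit, per the labels' protocols. The deposited values are FPKM per gene. STAR and Cuffdiff with the GRCm38 build are named in the submitters' processing notes; which versions, annotation, strand setting and scaling were used is not given in the sources used here. Each table held 32767 genes and as many blank rows. Spreadsheet dates in 27 gene names were reversed by identifier. The identifiers end before 22945 of 55450 genes of GENCODE vM21 (GRCm38), which were not analysed here; coordinates and overlaps come from that annotation.

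Depth was estimated from FPKM times length of genes with 1 transcript over 2000 bases, whose lowest values piled up at whole fragments (fragment length taken as 200 bases); 68.9% to 76.0% of these values lay within 0.15 of a whole fragment. Groups came from the sample titles. WT and dKO were compared by limma (version 3.58.1, R version 4.3.3) on log2(FPKM + 1). Genes needed 1 FPKM or more in 2 or more libraries, the variance followed a trend, and two-sided p-values were adjusted by Benjamini-Hochberg over 10710 genes (2 residual and 2.85 prior degrees of freedom). Simulated data with known changes, and the same SD for every gene, were used to check that the fit ran as meant. The genes of these data differ in spread, so the simulation does not show how reliable the calls are. An exact permutation test of 2 against 2 libraries cannot go below p = 0.333 and was not used. Alternatives changed the pseudocount, filter, scaling, block and libraries.

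The 10 members and the other gene lists were chosen with earlier results of these data known. Text names the members, the genes of each list past the threshold, the 5 genes of each list with the highest mean, a few markers, Tcf7, Lef1 and Foxp3, and the 3 nearest profiles of each member with no overlap and an absolute log2 fold change of at least 1. Cngb1, Gabrd, Chrnb1, Chrnb2 and Chrna9 are among the 5 highest of their lists. Atp2b4 is named outside this rule, for its log2 fold change, and its values under the alternatives are not given. Some genes that this rule names are not reported here.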

Additional observations from a re-analysis of the deposited data

How the results depend on the processing

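With 2 libraries per group and 2 residual degrees of freedom, counts of calls depended on the processing. Over all genes 75 passed (34 higher and 41 lower in dKO), against 66 with a pseudocount of 0.1, 53 at a mean of at least 5 FPKM, 61 with median scaling and 79 with quantile normalization. Without the filter 6 passed, with 0 in the calcium signalling lists and 0 in the channel lists. With genes listed at 0 in any library left out, 117 passed. The libraries of a group share only a replicate number with those of the other (correlation of their deviations 0.014), and with the replicate block 21 passed, with 0 in the calcium signalling lists and 1 in the channel lists. Leaving out 1 library gave 14 to 136 calls over all genes, 0 to 1 in the channel lists and 0 to 1 in the calcium signalling lists. The highest count was without dKO replicate 2 and the lowest without WT replicate 2. The cause was not tested.

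The log2 fold changes of Cnga1 and Gabrr2 ranged from -2.65 to -1.94 and from -2.50 to -1.82 over the alternatives, the lowest with a pseudocount of 0.1. Kcna3 ranged from -0.11 to 0.24 and Orai1 from -0.22 to 0.029, so neither has a settled direction. Among the list genes named in the report that did not pass, Cacna2d4 turned to -0.0020 with median scaling and -0.017 with quantile normalization. Leaving out 1 library turned the sign of 14 of these named genes, whose log2 fold changes ranged as follows: Itpr3 -0.15 to 0.12, Smdt1 -0.082 to 0.16, Atp2a2 -0.084 to 0.0099, Letm1 -0.010 to 0.13, Calm2 -0.092 to 0.0013, Nfatc3 -0.12 to 0.0098, Kcnh2 -0.048 to 0.45, Kcnmb4 -0.0051 to 0.25, Trpm7 -0.082 to 0.11, Mcoln3 -0.16 to 0.16, Trpm1 -0.76 to 0.30, Tmem63a -0.077 to 0.18, Cacnb1 -0.18 to 0.40 and Cacna2d4 -0.12 to 0.12. The FPKM files hold no counts, so the counting error of low levels is not known exactly.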
